A study of Mus musculus with 12 samples.

Results

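Embryos without Cited2 were compared with wildtype embryos, all from mothers that ate a high-fat diet. The groups were taken from the sample labels and hold 6 of the 12 embryos of the study, 3 Cited2 -/- and 3 wildtype. Each embryo was collected at 8.5 days post coitum (dpc) and hybridised alone to 1 Illumina mouse BeadChip array. Both groups are of the C57BL6/J strain and come from heterozygous Cited2 females crossed with heterozygous males. The mothers received the high-fat diet from 6 weeks of age, were mated 8 weeks later and kept the diet while pregnant. Another 3 Cited2 -/- and 3 wildtype embryos from mothers on a control diet, bred in the same way, entered the fit and serve here to set the genotype difference on the high-fat diet beside that on the control diet. Yolk sac and allantois had been removed from every embryo, and somites were counted to match stages. The labels give neither the somite numbers nor the litter of an embryo. The 3 embryos of a group are labelled as separate embryos, and whole embryos were measured, so a lower level can come from fewer cells of a type or from less RNA per cell, which cannot be told apart.

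CITED2 is a transcriptional co-regulator that does not bind DNA itself. It binds the CH1 domain of the co-activators CBP and p300, helps AP-2 transcription factors to activate their targets, and limits the hypoxia-inducible factors by competing with HIF-1α for CBP and p300. Mouse embryos without Cited2 are known for malformations of the heart and its outflow tract, for left-right patterning defects, in which the Nodal and Lefty genes take part, and for neural tube, neural crest and adrenal defects.

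The deposited signals are bead intensities, which were background-corrected, quantile-normalized and put on a log2 scale. A probe counted as detected on an array at a detection p under 0.01. Between 16584 and 18573 of the 45281 probes, 36.6% to 41% of them, were detected on each of the 6 arrays, and 17613 probes detected on at least 3 of the 6 were tested. They stood for 10007 genes, each taken at its brightest tested probe. A gene detected in 1 group only, such as En2 and Lefty2 below, could enter through that group alone, which favours groups that do not overlap. All log2 differences below are Cited2 -/- minus wildtype, given with the standard error (SE) of the limma fit, and a probe passed at a Benjamini-Hochberg adjusted p under 0.05 over the tested probes.

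Some embryos stood apart before any gene was compared. The 12 arrays fell into 2 sets of 6 on the first principal component, which held 47.7% of the variance, and the labels name no such sets. The same sets came from ranking the arrays by the bead-to-bead coefficient of variation at bright probes, which ran up to 20.2% for the arrays of set A and upward of 20.3% for those of set B, a measure that leaves no clear gap and whose brightness threshold was set after the data were seen. Every value given with the array set as a block rests on this division. Set A held Cited2 -/- embryos 1 and 2 and wildtype embryos 1 and 2 of the high-fat diet, and set B held embryo 3 of both groups. Cited2 -/- embryo 3 lay at 42.3 on the second component, against 0.0 and 12.3 for Cited2 -/- embryos 1 and 2 and −10.6 to 6.1 for the wildtype embryos. The summed signal of the yolk sac endoderm list, over its genes detected on any array, was 21534, 36309 and 84666 in Cited2 -/- embryos 1 to 3, against 25197 to 36535 in wildtype embryos. Of the defining markers of that tissue, Afp was not detected on any of the 6 arrays, while Ttr read 284.3, 923.0 and 4920.1 in the Cited2 -/- embryos, against 628.8 to 1036.8 in the wildtype embryos. Prl8a2, a prolactin-family hormone of the decidua, was detected in Cited2 -/- embryo 3, with a signal of 105.0, and on none of the other 5 arrays. The trophoblast marker Tpbpa and the white blood cell markers Ptprc and Lyz2 were not detected on any of the 6 arrays. In contrast, another trophoblast marker, Plac1, and the allantois marker Tbx4 were detected on all 6, with signals of 270.6 to 584.4 and of 237.1 to 663.2. The embryo markers Meox1, Myl7, Sox2, Tcf15, Otx2 and Pecam1 were detected in all 6 embryos.

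The groups also differed in sex markers. Xist, the RNA that coats the inactive X chromosome, had normalized log2 signals of 8.84, 9.03 and 10.14 in the Cited2 -/- embryos, against 4.39, 9.64 and 4.30 in wildtype embryos 1 to 3. The Y-linked gene Eif2s3y was detected in wildtype embryos 1 and 3 and in 0 of 3 Cited2 -/- embryos. Sex markers thus moved in part with genotype in these 6 embryos, and their part in the differences below was not tested beyond fits with the Xist or the Y-linked level as a covariate.

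Cited2 itself followed the labels. At its brightest probe (ILMN_2477221) the bead signal was −3.5, 4.4 and 119.7 in Cited2 -/- embryos 1 to 3, against 1615.5, 1898.0 and 3606.8 in wildtype embryos 1 to 3. The groups did not overlap, and Cited2 -/- embryo 3 was the 1 Cited2 -/- embryo in which the probe was detected. On the log2 scale Cited2 averaged 5.27 ± 1.37 in Cited2 -/- and 11.26 ± 0.35 in wildtype embryos (SD, n = 3 each), a difference of −5.99 ± 0.50 (limma, adjusted p = 0.000431). Without Cited2 -/- embryo 3 the difference was −6.78. The probe ILMN_2905866, undetected in 3 of 3 Cited2 -/- embryos, gave −4.04 ± 0.23, at least 9.53-fold lower. The probe ILMN_2683980 gave −3.8 ± 0.22 and was detected in Cited2 -/- embryo 3 with a signal of 31.2 against 326.8 to 477.1 in wildtype embryos. In that embryo the residual Cited2 signal stood beside the Prl8a2 and yolk sac signals given above, and whether they share a source was not tested. The labels do not say which part of the gene the allele lacks, so it is unknown here whether the probes lie within it.

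Beyond Cited2, 2 genes passed, and both were lower in Cited2 -/- embryos. One of them, Hebp2, lies 8 genes from Cited2 and is taken up again below with the other genes near it. In all, 5 of the 17613 probes passed (0.0284%), 0 higher and 5 lower in Cited2 -/- embryos, which were the 3 Cited2 probes, En2 and Hebp2, or 3 of 10007 genes (0.03%). At an unadjusted p under 0.05 there were 574 probes (3.26%), and among genes 131 were higher (1.31%) and 225 lower (2.25%).

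The upstream windows of the passing genes that have an entry in the RefSeq promoter table (GRCm38.p6), Cited2 and Hebp2, are shown because AP-2 factors and hypoxia-inducible factors are the DNA-binding proteins whose activity CITED2 alters. Each window is the 250 bases before the annotated start, 5′ to 3′ on the gene's strand, and capitals mark matches to the HIF core ACGTG or to the AP-2 consensus GCCNNNGGC on either strand.
Cited2, chr10:17722978-17723227, plus strand: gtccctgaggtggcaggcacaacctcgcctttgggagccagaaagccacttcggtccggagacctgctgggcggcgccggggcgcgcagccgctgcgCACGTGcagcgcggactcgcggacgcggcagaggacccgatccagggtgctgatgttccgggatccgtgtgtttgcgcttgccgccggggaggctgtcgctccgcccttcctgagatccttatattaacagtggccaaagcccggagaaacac
Hebp2, chr10:18546077-18546326, minus strand: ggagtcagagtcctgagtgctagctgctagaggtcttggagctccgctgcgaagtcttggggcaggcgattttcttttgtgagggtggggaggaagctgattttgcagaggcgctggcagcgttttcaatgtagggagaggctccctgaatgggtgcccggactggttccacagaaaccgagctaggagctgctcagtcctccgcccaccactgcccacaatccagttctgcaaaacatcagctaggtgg
The Cited2 window held the HIF core once on each strand, in 1 palindromic stretch that starts 153 bases before the start (position −153), and 0 matches to the AP-2 consensus. The Hebp2 window held neither. Among the promoter windows of the table, 16.6% held the HIF core and 13.7% the AP-2 consensus. A match to these letters describes the window and is not a binding site.

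En2, a homeobox gene that marks the midbrain-hindbrain boundary and takes part in forming the cerebellum, was not detected in any Cited2 -/- embryo of the high-fat diet. Its bead signal was 4.3, −2.7 and 5.5 in Cited2 -/- embryos, against 35.5, 52.1 and 173.0 in wildtype embryos. The groups did not overlap, and wildtype embryo 3 was the highest. The log2 difference was −2.08 ± 0.29 (limma, adjusted p = 0.0482), and En2 was at least 2.62-fold lower, the Cited2 -/- level being only a bound. Of 30 alternative settings, 24 left the direction in place and ended the call, leaving out Cited2 -/- embryo 3 among them (−2.10, adjusted p = 0.174). With the array set as a block the adjusted p was 0.0102, and with the Xist level as a covariate the difference was −1.88 (adjusted p = 0.32).

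Hebp2, a haem-binding protein, had signals of 34.1, 58.9 and 68.6 in Cited2 -/- embryos and of 104.1, 88.4 and 170.8 in wildtype embryos. After normalization its log2 signals were 6.06, 6.25 and 6.17 in Cited2 -/- embryos, against 7.38, 7.09 and 7.23 in wildtype embryos, so that the groups were well separated. The difference was −1.08 ± 0.15, or 2.11-fold lower (limma, adjusted p = 0.0482). The second, dimmer Hebp2 probe gave 0.15 ± 0.21 and did not show the drop. Its signals ran from 17.6 to 39.3, and it was detected in 2 of 3 wildtype embryos. A drop could hardly show so near the detection floor. Of 31 alternative settings 25 ended the call without turning the direction, leaving out Cited2 -/- embryo 3 among them (−1.08, adjusted p = 0.174), and with the array set as a block the adjusted p was 0.0141.

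**Figure D1:**
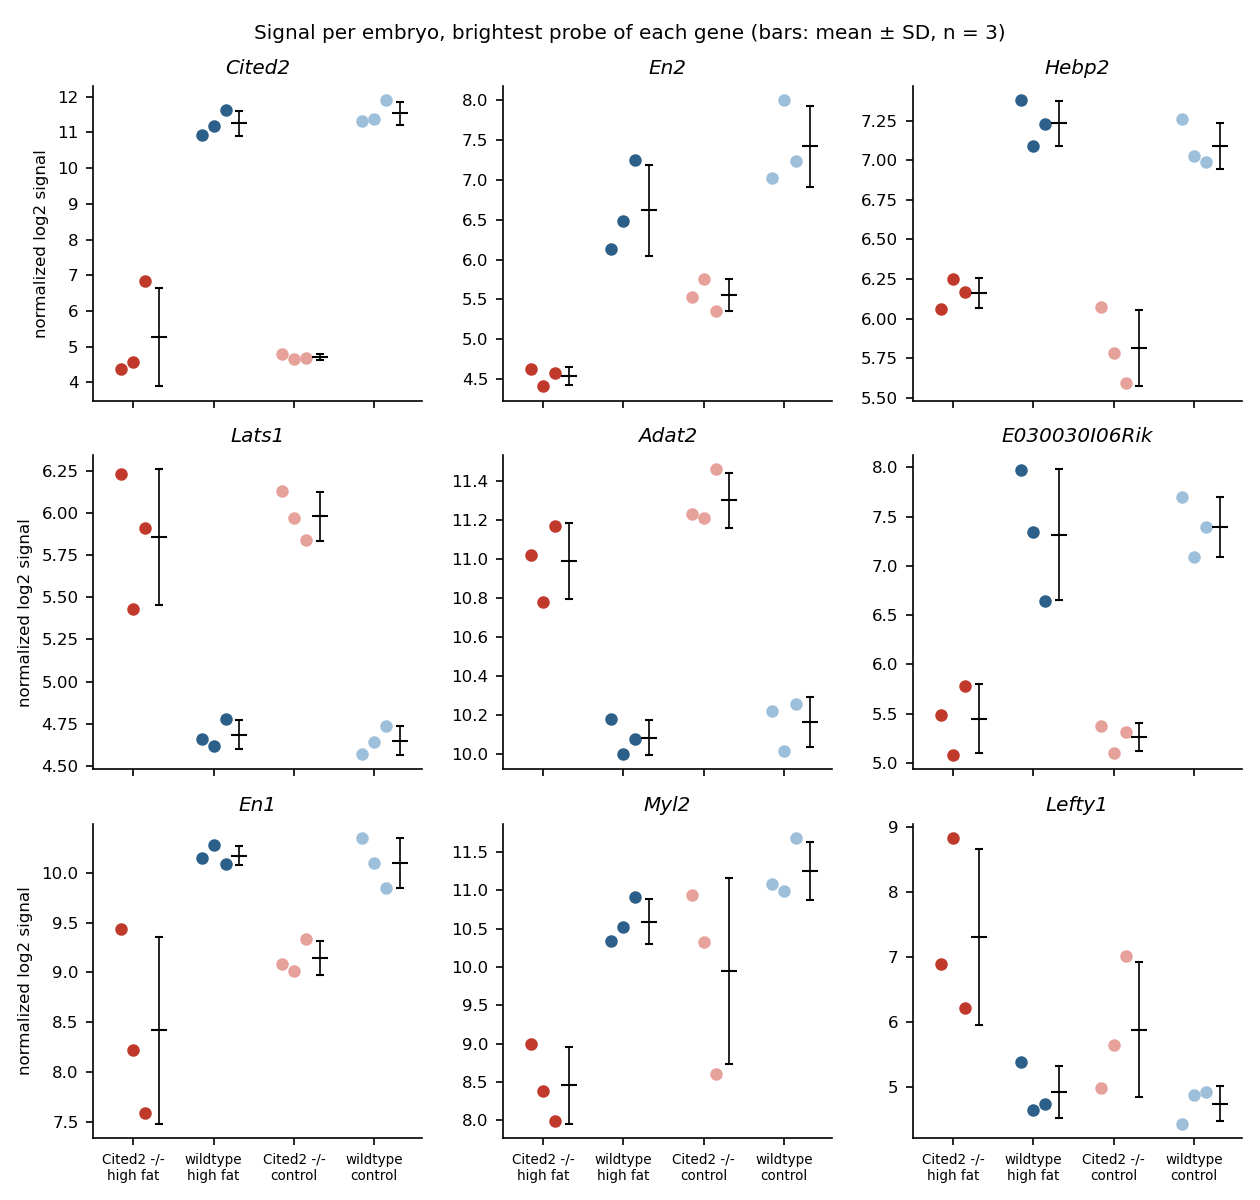
Normalized log2 signal (y axis) of 9 genes in each embryo, with points for single embryos and a bar for the mean ± SD of 3 embryos. Cited2 -/- embryos of the high-fat diet come first, then wildtype embryos of that diet, then both control-diet groups. Cited2 -/- embryo 3 of the high-fat diet lies at 6.85 for Cited2, above 4.38 and 4.57 in the other Cited2 -/- embryos of that diet.

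Blocking for the array set added 1 gene. Cldn10, a tight-junction claudin, had log2 signals of 7.61, 7.67 and 7.24 in Cited2 -/- embryos, against 8.43, 8.34 and 8.09 in wildtype embryos. Its difference of −0.78 ± 0.14 had an adjusted p of 0.249 in the limma fit without the block and of 0.0363 with it, under which 6 probes passed (0.0341%). The other Cldn10 probes gave −0.76 ± 0.20 and −0.56 ± 0.18, where the dimmer one was undetected in Cited2 -/- embryos and at least 1.35-fold lower. Without Cited2 -/- embryo 3 the difference at the brightest probe was −0.65.

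The genes next to Cited2 on chromosome 10 formed a list of their own. For them the loss of Cited2 and the sequence around the altered allele go together with genotype and cannot be told apart. Of the 100 protein-coding genes within 50 genes on either side, 43 were tested, 1 passed (Hebp2, 8 genes away) and their median difference was −0.06, against −0.0019 over all genes. On the side of lower coordinates Adat2, which encodes a subunit of the tRNA adenosine deaminase and lies 7 genes away, had log2 signals of 11.02, 10.78 and 11.17 in Cited2 -/- embryos, against 10.18, 10 and 10.08 in wildtype embryos. The groups did not overlap, and the difference was 0.90 ± 0.14, or 1.87-fold higher (limma, adjusted p = 0.088). Lats1, a kinase of the Hippo pathway 32 genes away, was undetected in 3 of 3 wildtype embryos and had bead signals of 39.6, 28.2 and 53.9 in Cited2 -/- embryos, against 5.0, 4.0 and 12.2 in wildtype embryos. Its difference was 1.17 ± 0.18, at least 1.5-fold (adjusted p = 0.088). Sash1, an adaptor protein 25 genes away, gave 0.91 ± 0.23 (adjusted p = 0.736) at its brightest probe. Another probe, detected in 2 of 3 Cited2 -/- and 1 of 3 wildtype embryos, gave 0.00 ± 0.26. Rab32, a small GTPase of pigment granules 21 genes away, gave −1.26 ± 0.28 (adjusted p = 0.537).

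On the side of higher coordinates the uncharacterised gene E030030I06Rik, 31 genes away, had bead signals of 20.8, 19.2 and 47.2 in Cited2 -/- embryos, against 168.7, 107.5 and 106.8 in wildtype embryos. The groups did not overlap, and its difference was −1.87 ± 0.30 (limma, adjusted p = 0.102), −0.86 within array set B and −2.37 within set A. Heca, 2 genes away, gave −0.51 ± 0.15 and Myb, a transcription factor of blood progenitors 26 genes away, −0.35 ± 0.14 (adjusted p = 1 for each). In 4 of the 43 neighbours every Cited2 -/- embryo lay above every wildtype embryo, against 2.5% of all genes, and in 6 (14%) every one lay below, against 4.11%. The 4 higher ones, Ipcef1, Lats1, Sash1 and Adat2, all lay on the side of lower coordinates. Of the 6 lower ones Rab32 lay on that side too, and Heca, Hebp2, Ahi1, Myb and E030030I06Rik on the side of higher coordinates. The nearest tested genes, Heca, Vta1 and Abracl, gave −0.51, 0.16 and −0.41. The control-diet embryos gave 1.13 for Adat2, 1.33 for Lats1, 1.05 for Sash1, −1.11 for Rab32, −1.28 for Hebp2 and −2.14 for E030030I06Rik, of which Adat2 (adjusted p = 0.0129), Lats1 (0.0305), Hebp2 (0.0103) and E030030I06Rik (0.0328) passed there.

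**Figure D2:**
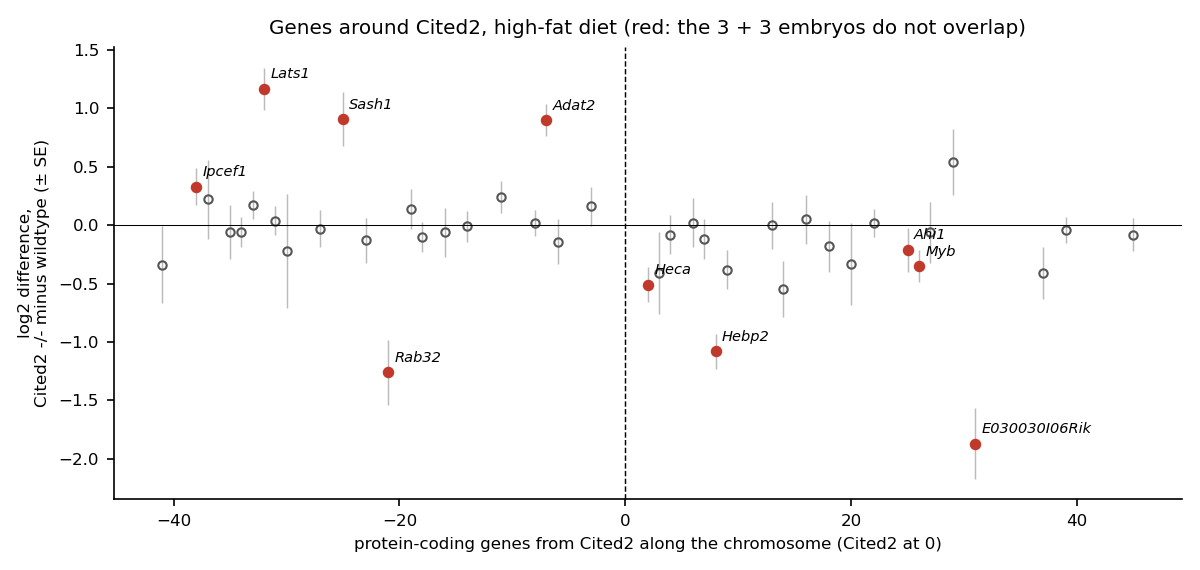
Log2 difference, Cited2 -/- minus wildtype on the high-fat diet, with its SE (y axis), of the 43 tested genes within 50 protein-coding genes of Cited2, in chromosomal order (x axis, genes counted from Cited2). Red filled points are the 10 genes whose 3 Cited2 -/- and 3 wildtype embryos did not overlap, 4 of them higher and 6 lower.

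None of the left-right patterning genes passed, although Lefty1 lay higher and Lefty2 lower in every Cited2 -/- embryo than in any wildtype embryo. The Nodal pathway sets the left side of the embryo, with the ligand Nodal, the co-factor Foxh1 and the extracellular inhibitors Lefty1, of the midline, and Lefty2, of the left lateral mesoderm. Nodal had bead signals of 44.0, 233.4 and 80.4 in Cited2 -/- embryos, against 115.2, 38.4 and 26.4 in wildtype embryos, which overlap. Its difference was 0.61 with a 95% confidence interval of −0.99 to 2.22, so neither direction was settled.

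Lefty1 had signals of 68.9, 435.4 and 71.5 in Cited2 -/- embryos and of 18.1, 4.8 and 10.9 in wildtype embryos. Its difference of 2.39 ± 0.61 did not pass (limma, adjusted p = 0.736), although the groups did not overlap, and it was 2.94 without Cited2 -/- embryo 3. Lefty2 had signals of 5.0, 20.7 and −2.6 in Cited2 -/- embryos, none of them detected, against 373.8, 146.5 and 34.7 in wildtype embryos. Its difference was −2.66 ± 0.93 (adjusted p = 1), at least 4.47-fold, and the wildtype embryos spread by an SD of 1.79. Foxh1 gave 0.81 ± 0.35. Of the 14 tested genes of the left-right list 0 passed, and 7 were above and 7 below 0. On the control diet Lefty1 gave 1.14 and Lefty2 0.18. The difference between the diets was 1.25 (interval −0.64 to 3.14) for Lefty1 and −2.84 (−5.73 to 0.05) for Lefty2, both at an adjusted interaction p of 1.

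Heart muscle genes lay lower in Cited2 -/- embryos, although 0 of them passed. All 23 tested genes of the cardiac muscle list had a difference below 0, with a median of −0.63 against −0.0019 over all 10007 genes. Of them 10 (43.5%) had an unadjusted p under 0.05 in this direction, against 2.25% of all genes, and in 6 (26.1%) the groups did not overlap, against 4.11%. Among the control-diet embryos the list median was −0.15, with 21 of 23 genes below 0. There 1 gene had an unadjusted p under 0.05 in this direction. The difference between the diets was not tested for any list. The ventricular myosin light chain Myl2 had bead signals of 350.0, 315.3 and 289.9 in Cited2 -/- embryos, against 1023.4, 1172.5 and 2170.9 in wildtype embryos. Its difference was −2.13 ± 0.48, or 4.39-fold lower (limma, adjusted p = 0.626), and it was −1.90 without Cited2 -/- embryo 3. Without control-diet Cited2 -/- embryo 3 in the fit, Myl2 and Acta1 passed (adjusted p = 0.0413 and 0.043). With the Xist level as a covariate their differences were −1.59 and −1.41, and neither passed.

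Skeletal alpha-actin Acta1, which the early heart also expresses, had signals of 282.1, 257.8 and 192.3 in Cited2 -/- embryos, against 730.2, 705.7 and 1213.8 in wildtype embryos, a difference of −1.83 ± 0.39 (limma, adjusted p = 0.488). The small heat shock protein gene Hspb7 gave −1.0 ± 0.25 and was detected in 0 of 3 Cited2 -/- and 3 of 3 wildtype embryos, at least 1.87-fold lower. It thus met the detection filter through the wildtype embryos alone. Cardiac actin Actc1 gave −0.86 ± 0.31, the natriuretic peptide Nppb −1.68 ± 0.61, the Z-disc protein Actn2 −1.21 ± 0.42 and the myosin heavy chain Myh6 −1.15 ± 0.40. Nppb averaged 4.92 in Cited2 -/- embryos, below the 5.13 of Hspb7, so its level there also lay near the detection floor. At the other end Tpm1, a tropomyosin, gave −0.03 ± 0.17. The atrial and heart tube light chain Myl7 had log2 signals of 9.65, 9.49 and 9.53 in Cited2 -/- embryos, against 9.56, 9.93 and 11.05 in wildtype embryos, so it was wildtype embryo 3 that stood out.

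The cardiac genes did not behave alike in all 3 Cited2 -/- embryos. The mean deviation of the 23 genes from their 6-embryo mean was 0.07, −0.49 and −0.78 in Cited2 -/- embryos 1 to 3, against 0.22, 0.36 and 0.62 in wildtype embryos. Cited2 -/- embryo 1 thus lay close to the wildtype embryos, and the list median was −0.34 within array set A and −1.37 within set B. Without Cited2 -/- embryo 3, 23 of 23 genes were again below 0 with a median of −0.47, and 4 (17.4%) had an unadjusted p under 0.05, against 1.87% of all genes in that fit. Cited2 -/- embryo 3 is also the one with the high yolk sac signals, whose part in its heart gene levels was not tested.

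Among the transcription factors of the heart as many lay above as below 0. Of the 20 tested genes of the heart transcription factor and second heart field list, 0 passed, 10 were above and 10 below 0, and the median was 0.00. Nkx2-5 gave −0.01 ± 0.19, Tbx20 −0.15 ± 0.28, Mef2c 0.12 ± 0.22 and Isl1 0.26 ± 0.15. The pharyngeal and outflow tract regulator Tbx1 gave −0.74 ± 0.23 and the ventricular factor Irx4 −0.94 ± 0.30, while the heart and endoderm factors Gata5 and Gata4 gave 0.54 ± 0.17 and 0.50 ± 0.20, each without overlap between groups and at an adjusted p of 1.

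Neural crest genes followed with the same direction in every tested member. All 11 had a difference below 0, with a median of −0.49. In 5 (45.5%) the groups did not overlap, against 4.11% of all genes, and 0 passed. Sox10, the transcription factor of migrating crest, had bead signals of 153.4, 42.7 and 25.3 in Cited2 -/- embryos, against 191.4, 273.7 and 518.5 in wildtype embryos. Its difference was −2.17 ± 0.67 (limma, adjusted p = 1), and −1.61 without Cited2 -/- embryo 3, while Cited2 -/- embryo 1 lay near the lowest wildtype embryo. Tfap2b, one of the AP-2 factors that CITED2 helps to activate transcription, gave −1.82 ± 0.59 with 2 of 3 Cited2 -/- embryos detected, and −1.25 without Cited2 -/- embryo 3. Its 2 other probes gave −1.56 ± 0.49, undetected in 3 of 3 Cited2 -/- embryos and at least 2.07-fold lower, and −1.54 ± 0.46, detected in 1 of them. The other AP-2 genes gave −0.22 ± 0.16 (Tfap2a) and 0.26 ± 0.13 (Tfap2c). With the Xist level as a covariate Sox10 gave −1.59 and Tfap2b −1.27. Crabp1, a retinoic acid binding protein of crest and hindbrain, had log2 signals of 9.66, 9.69 and 9.80 in Cited2 -/- embryos, against 10.46, 10.09 and 10.71 in wildtype embryos, a difference of −0.70 ± 0.17 (adjusted p = 0.643). Sox9 gave −0.49 ± 0.15 and Ets1 −0.55 ± 0.26. The list's mean deviation was 0.08, −0.52 and −0.59 in Cited2 -/- embryos, against 0.23, 0.33 and 0.47 in wildtype embryos, the same order as for heart muscle. Without Cited2 -/- embryo 3 the median was −0.41 with 11 of 11 below 0. Among the control-diet embryos it was −0.21 with 8 of 11 below 0.

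Among brain patterning genes En2 passed and its paralogue En1 did not. In the midbrain-hindbrain and neural tube list 1 of 23 tested genes passed, En2. Of the 23 genes 16 were below 0 with a median of −0.27, and in 7 (30.4%) all Cited2 -/- embryos lay below all wildtype embryos, against 4.11% of all genes. En1 had bead signals of 490.5, 278.0 and 215.2 in Cited2 -/- embryos, against 889.6, 976.1 and 1252.2 in wildtype embryos. Its difference was −1.76 ± 0.35 (limma, adjusted p = 0.324), or 3.38-fold lower. It was −2.27 without Cited2 -/- embryo 1, where it passed (adjusted p = 0.00199), and −1.34 without Cited2 -/- embryo 3. With the Xist level as a covariate it was −1.86. A second En1 probe gave −1.49 ± 0.35. Fgf8 and Fgf17, the signals of the boundary that En1 and En2 help to maintain, gave −0.41 ± 0.16 and −0.44 ± 0.14. Wnt1, on the midbrain side of the boundary, gave −0.69 ± 0.37, and Gbx2, on its hindbrain side, 0.11 ± 0.19. Forebrain genes of the list that were lower without overlap included the eye field gene Rax (−1.27 ± 0.30, adjusted p = 0.626) and Wnt8b (−0.80 ± 0.25), while Otx2, expressed through forebrain and midbrain, gave 0.31 ± 0.24. In the ventral tube Nkx2-2 gave −0.93 ± 0.24, Shh 0.08 ± 0.20 and Foxa2 0.22 ± 0.24. Fezf1, a forebrain zinc finger gene, gave −1.67 ± 0.47, with 6.41 in Cited2 -/- embryo 3 against 8.41 and 8.89 in Cited2 -/- embryos 1 and 2 and 9.52 to 9.63 in wildtype embryos, and −0.92 without Cited2 -/- embryo 3. Without Cited2 -/- embryo 3 the list median was −0.20 and 13 of 23 genes were below 0. The control-diet median was −0.13 with 16 of 23 below 0.

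Somite genes did not pass either, but the embryos of each group lay close together. Of 11 tested somite genes, 9 were below 0 with a median of −0.14, 0 passed, and 4 (36.4%) lay lower without overlap, against 4.11% of all genes. Of these 4, Uncx and Foxc2 met the detection filter through the wildtype embryos alone. Meox1, a homeobox gene of somites, had bead signals of 621.6, 871.1 and 869.7 in Cited2 -/- embryos, against 1052.4, 979.6 and 1300.0 in wildtype embryos. Its difference was −0.59 ± 0.14 (limma, adjusted p = 0.626). Uncx, of the posterior part of each somite, was not detected in any Cited2 -/- embryo and gave −0.91 ± 0.22, at least 1.53-fold. Tcf15 gave −0.67 ± 0.23, while Foxc2, detected in 0 of 3 Cited2 -/- embryos, gave −0.54 ± 0.16, at least 1.36-fold lower. The presomitic genes gave −0.20 ± 0.22 (Tbx6), −0.14 ± 0.19 (Dll1) and −0.09 ± 0.14 (Hes7). The mean deviation of the list was −0.15, −0.11 and −0.14 in Cited2 -/- embryos, against 0.20, 0.11 and 0.09 in wildtype embryos, so here the embryos of each group lay together and Cited2 -/- embryo 3 did not stand out. The list median was −0.39 without Cited2 -/- embryo 3 and −0.31 without wildtype embryo 1. The control-diet median was −0.36, with 9 of 11 genes below 0. There 5 genes had an unadjusted p under 0.05 and lower values, against 4 on the high-fat diet.

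Of 24 tested Hox genes, which give position along the body axis, 18 were below 0 with a median of −0.24, and 0 passed. The 7 (29.2%, against 4.11% of all genes) that lay lower without overlap were Hoxa2, Hoxa3, Hoxa7, Hoxa9, Hoxc6, Hoxc9 and Hoxd3, with Hoxa9 at −1.37 ± 0.40, Hoxc9 at −1.23 ± 0.46 and Hoxc6 at −1.03 ± 0.32. Without Cited2 -/- embryo 3 Hoxa9 gave −0.93 and Hoxc6 −0.60. Hoxb5 lay higher without overlap, at 0.33 ± 0.13. The median was −0.04 within array set A, −0.56 within set B and −0.15 without Cited2 -/- embryo 3. The control-diet median was −0.12 with 19 of 24 below 0. Of 16 Notch and segmentation clock genes the median was −0.03 and 0 had an unadjusted p under 0.05 in either direction.

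**Figure D3:**
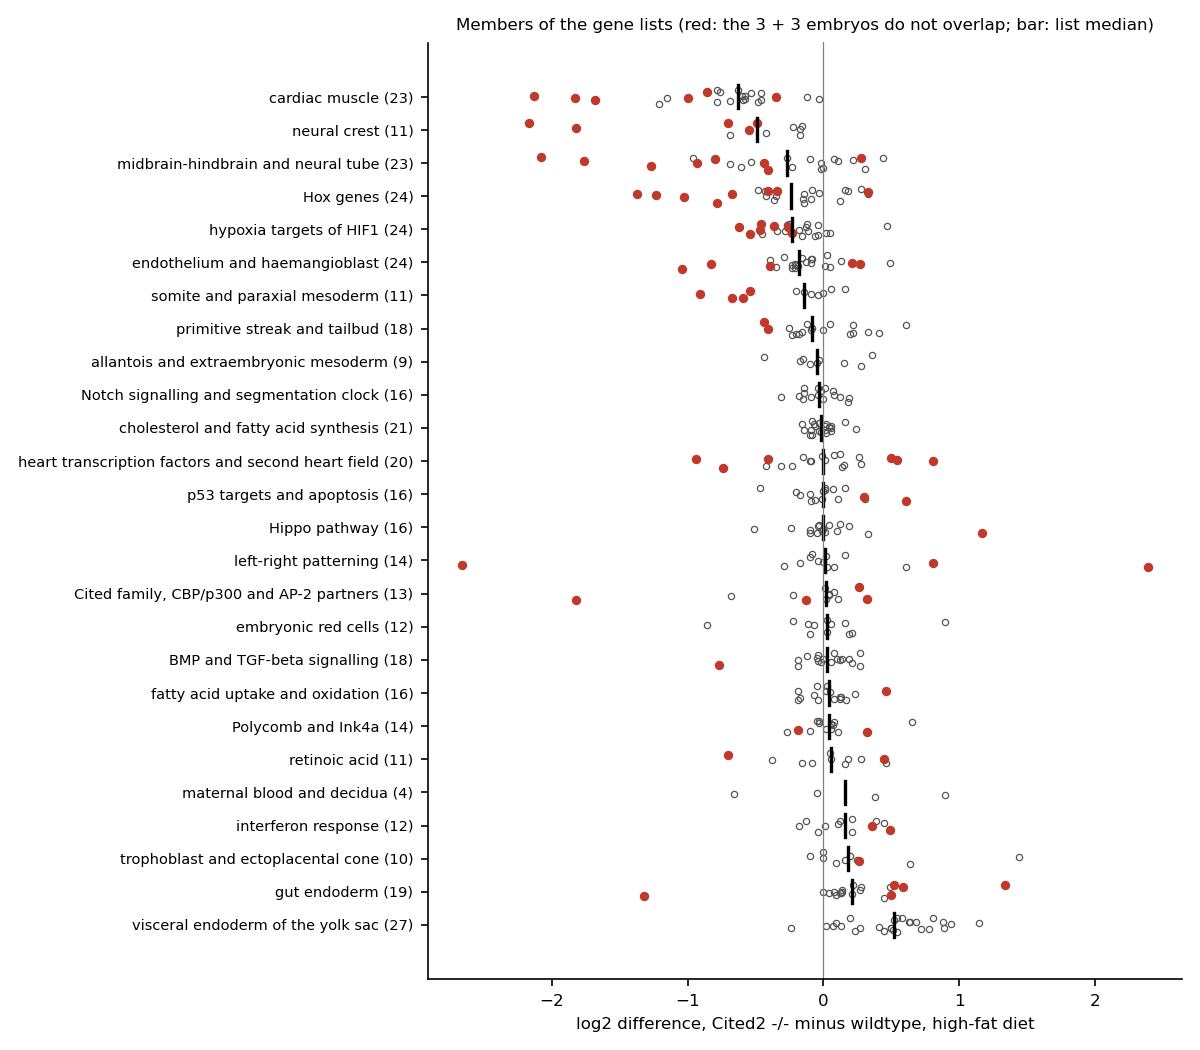
Log2 difference, Cited2 -/- minus wildtype on the high-fat diet (x axis), of each tested member of 26 gene lists (rows, with the number of tested genes, Cited2 itself not drawn). Red filled points are genes whose 3 Cited2 -/- and 3 wildtype embryos did not overlap, and bars are list medians, from −0.63 for cardiac muscle to 0.52 for yolk sac endoderm.

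Of 24 tested targets of HIF-1, which CITED2 limits, 3 were above and 21 below 0, with a median of −0.23, and 0 passed. In 7 (29.2%) the Cited2 -/- embryos lay below the wildtype embryos without overlap, against 4.11% of all genes. The oxygen sensor Egln1 gave −0.54 ± 0.18, the kinase Pdk1 −0.46 ± 0.20 and Ndrg1 −0.62 ± 0.24, while Vegfa gave 0.05 ± 0.15, the glucose transporter Slc2a1 −0.04 ± 0.12 and Ddit4 0.47 ± 0.26. The list's mean deviation was −0.09, −0.12 and −0.11 in Cited2 -/- embryos, against −0.04, 0.02 and 0.33 in wildtype embryos. Wildtype embryo 3 thus carried most of the shift, and without it the median was −0.06. Among the control-diet embryos the median was −0.04, with 13 genes below and 11 above 0. Hif1a gave 0.08 ± 0.18 and Arnt 0.11 ± 0.21, and the CITED2 partners gave −0.68 ± 0.40 (Crebbp, which encodes CBP) and 0.01 ± 0.23 (Ep300, which encodes p300). The family members Cited1 and Cited4 gave 0.02 ± 0.17 and 0.04 ± 0.37. Bmi1, a Polycomb gene, gave 0.32 ± 0.15, and of 14 tested Polycomb and Ink4a genes 0 passed.

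Metabolic genes, of interest because of the maternal diet, did not pass in any case. The median over 21 tested genes of cholesterol and fatty acid synthesis was −0.02, with 0 at an unadjusted p under 0.05, and the differences ran from −0.16 to 0.24. It was 0.09 within array set A and −0.32 within set B. The median over 16 genes of fatty acid uptake and oxidation was 0.04, and Fabp3, a fatty acid binding protein of heart and muscle, gave 0.46 ± 0.20 (limma, adjusted p = 1). The p53 target Phlda3 gave 0.61 ± 0.18 in a list of 16 with a median of 0.00.

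Endoderm genes lay above 0 in most cases. Of 27 tested genes of the yolk sac endoderm list 26 were above 0 with a median of 0.52, but the groups overlapped in all 27 and 0 had an unadjusted p under 0.05. The mean deviation was −0.44, 0.04 and 1.16 in Cited2 -/- embryos, against 0.46, −0.07 and −1.13 in wildtype embryos, and the median was 0.08 without Cited2 -/- embryo 3, 0.06 without wildtype embryo 3 and −0.26 within array set A. On this diet the median thus rested on embryo 3 of both groups. Among the control-diet embryos it was 0.5, also with 26 of 27 genes above 0. Of 19 tested gut endoderm genes 18 were above 0 with a median of 0.21, 0 passed, 4 lay higher without overlap, against 2.5% of all genes, and 4 had an unadjusted p under 0.05 in that direction, against 1.31%. The mean deviation of this list was −0.12, 0.15 and 0.31 in Cited2 -/- embryos, against −0.09, −0.12 and −0.13 in wildtype embryos. Cited2 -/- embryo 1 thus lay at the level of the wildtype embryos. Without Cited2 -/- embryo 3 the median was 0.18. Among the control-diet embryos it was 0.2, with 17 of 19 genes above 0.

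Trh, the thyrotropin-releasing hormone precursor, had bead signals of 983.1, 2661.9 and 2460.3 in Cited2 -/- embryos, against 787.7, 622.7 and 655.0 in wildtype embryos, a difference of 1.34 ± 0.33 (limma, adjusted p = 0.643). Pyy, a gut peptide, ran against its list at −1.32 ± 0.26 (adjusted p = 0.319), with 51.5, 68.8 and 66.2 in Cited2 -/- embryos against 99.4, 122.5 and 355.5 in wildtype embryos. The median over 12 genes of embryonic red cells was 0.03, and the summed signal of that list was 3428, 4136 and 17569 in Cited2 -/- embryos, against 11717, 2704 and 6062 in wildtype embryos. The trophoblast list had a median of 0.18 over 10 genes, −0.03 without Cited2 -/- embryo 3, and a summed signal of 7675 to 18737 in Cited2 -/- embryos, against 8412 to 13083 in wildtype embryos, the highest value again being that of Cited2 -/- embryo 3.

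The remaining lists also held 0 passing genes. The median was −0.18 over 24 genes of endothelium and haemangioblast, where 3 (12.5%) had an unadjusted p under 0.05 and lower values, against 2.25% of all genes, and −0.02 without Cited2 -/- embryo 3. It was −0.08 over 18 genes of the primitive streak and tailbud, 0.03 over 18 genes of BMP and TGF-beta signalling, 0.06 over 11 genes of retinoic acid signalling and 0.00 over 16 genes of the Hippo pathway, with 0 passing in each list. Interferon response genes had a median of 0.16 over 12 and allantois genes of −0.05 over 9, again with 0 passing. Of the maternal blood and decidua list 4 genes were tested and 7 were detected on any array, and the summed signal of those 7 was 1450, 1159 and 5384 in Cited2 -/- embryos, against 2118, 433 and 2148 in wildtype embryos. Outside the lists, the other genes among the 8 highest and 8 lowest were Stmn3, a microtubule regulator of neurons, at 1.04, the lipid phosphatase gene Plpp4 at 0.84, detected in 0 of 3 wildtype embryos and at least 1.29-fold higher, and Abra, an actin-binding protein of muscle, at −1.84 ± 0.50 (limma, adjusted p of 0.717 to 0.978).

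**Figure D4:**
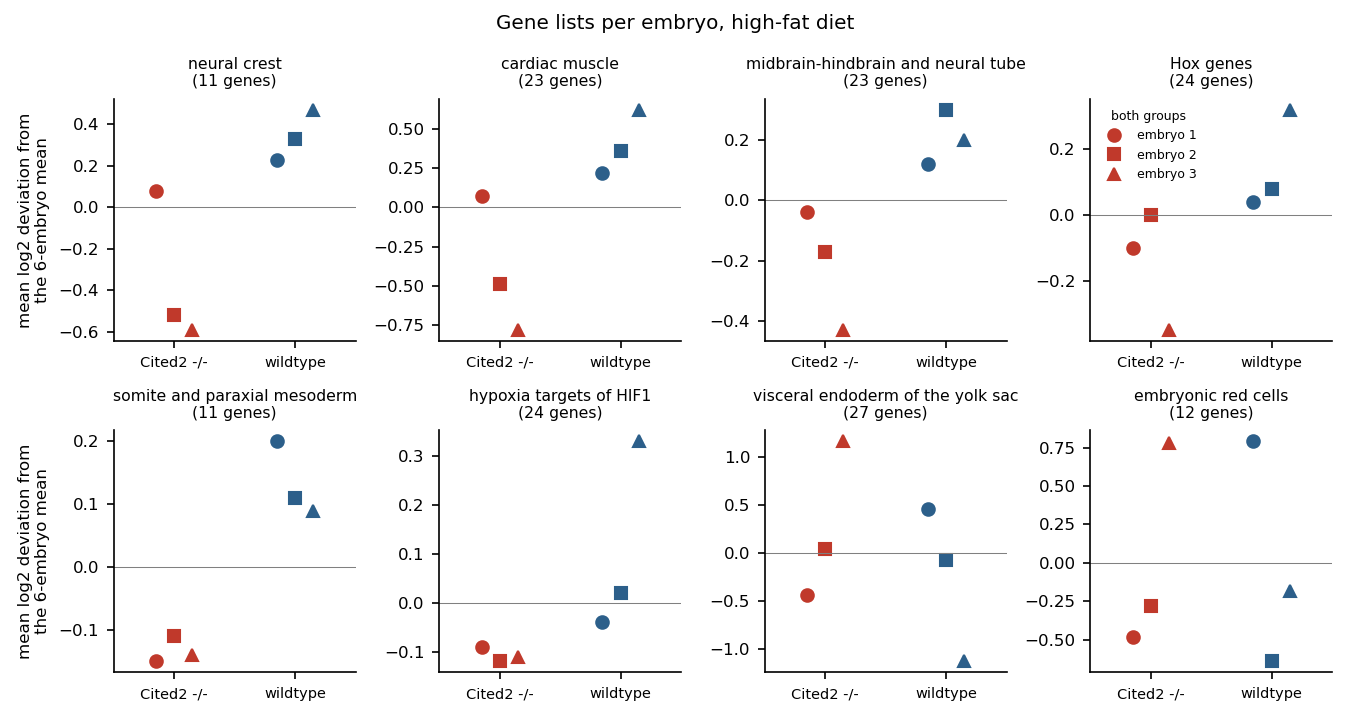
Mean log2 deviation of a list's tested genes from their mean over the 6 embryos (y axis), for 8 lists, with Cited2 -/- embryos left and wildtype embryos right and a marker shape for each embryo number. For neural crest and cardiac muscle Cited2 -/- embryo 1 lies at 0.08 and 0.07, nearer to the wildtype embryos than Cited2 -/- embryos 2 and 3, and for yolk sac endoderm the groups overlap.

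The genes set apart most clearly can be followed on the control diet, in embryos whose levels the choice used only through the shared spread. Besides Cited2, 87 genes had an unadjusted p under 0.01 and no overlap between groups, 23 higher and 64 lower in Cited2 -/- embryos. On the control diet 20 of the 23 and 57 of the 64 had the same sign, which is 87% and 89.1%, against 58.3% and 50.7% of all genes above and below 0 on the high-fat diet. The median difference was 0.69 on the high-fat and 0.26 on the control diet for the 23, and −0.81 and −0.31 for the 64. At an unadjusted p under 0.05 on the control diet with the same sign were 5 (21.7%) and 18 (28.1%), against 0.871% and 1.12% of all genes above and below 0 on the high-fat diet, and 0.56% and 0.879% of all genes irrespective of it. The choice of genes by their high-fat values favours a larger size on that diet in these medians, and their choice by p favours genes with a small shared spread, which also lowers their p on the control diet. Over 10006 genes without Cited2 the differences on the 2 diets had a Pearson correlation of 0.368, as a description over genes that share arrays, array sets and the fit. Within 50 genes of Cited2 lay 3 of the 23 and 4 of the 64, which is 13% and 6.25%, against 0.43% of all tested genes. These 3, Adat2, Lats1 and Sash1, were all among the 5 counted above on the control diet. Hebp2, E030030I06Rik and Rab32 were likewise among the 18. In the RefSeq promoter table the AP-2 consensus was found for 4 of 20 matched genes among the higher and 6 of 46 among the lower ones, which is 20% and 13%, against 24% of matched tested genes. The HIF core was found for 8 of 20 and 15 of 46, which is 40% and 32.6%, against 25.2%.

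On the control diet 7 of the 17613 probes passed for genotype (0.0397%), 2 higher and 5 lower in Cited2 -/- embryos, with 274 at an unadjusted p under 0.05 (1.56%). The difference between the diets in the genotype effect passed for 0 probes in limma (0%), with 208 at an unadjusted p under 0.05 (1.18%). For the genes that had passed, the difference between diets was −0.20 ± 0.41 for En2 and 0.20 ± 0.21 for Hebp2, with 95% confidence intervals of −1.10 to 0.69 and −0.26 to 0.67. En2 was undetected in 3 of 3 Cited2 -/- embryos of the high-fat diet and detected in 3 of 3 Cited2 -/- embryos of the control diet, but its wildtype level was also lower on the high-fat diet, at 6.62 ± 0.57 against 7.42 ± 0.51 on the control diet (SD, n = 3 each). Among muscle and crest genes, the difference between diets was −1.25 for Acta1 (unadjusted p = 0.045), −0.84 for Myl2 (0.245), −1.35 for Abra (0.0815), −1.71 for Sox10 (0.0965) and −1.56 for Tfap2b (0.0855). It was −0.67 for Crabp1 (0.0177), −1.14 for Rax (0.0204) and 1.07 for Trh (0.0397), with an adjusted interaction p of 1 for each of these 8 genes. The 5 genes with the smallest interaction p were Osr2 (0.79, and −0.32 at its other probe), Mdga2 (−0.68), Steap4 (0.95), Arhgap42 (0.61) and Parp4 (−0.72), and none passed.

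The control-diet embryos also show how far single embryos can differ. Control-diet Cited2 -/- embryo 3 had a Myl2 log2 signal of 8.60, against 10.94 and 10.32 in control-diet Cited2 -/- embryos 1 and 2, and a Sox10 signal of 7.07, against 9.42 and 9.21. Its summed yolk sac endoderm signal was 64381, against 21341 and 29567 in the other control-diet Cited2 -/- embryos, it had the decidual Prl8a2 at a signal of 58.1, and its Xist level was 10.56. Its Glra2 signal was 122.6, against 11.5 and 12.5 in the other control-diet Cited2 -/- embryos, while the high-fat Cited2 -/- embryos had 41.2, 119.7 and 150.8 and the high-fat wildtype embryos 13.5, 15.7 and 19.7. Glra2, a glycine receptor subunit, gave 1.72 ± 0.41 on the high-fat diet, at least 2.97-fold (limma, adjusted p = 0.643).

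**Figure D5:**
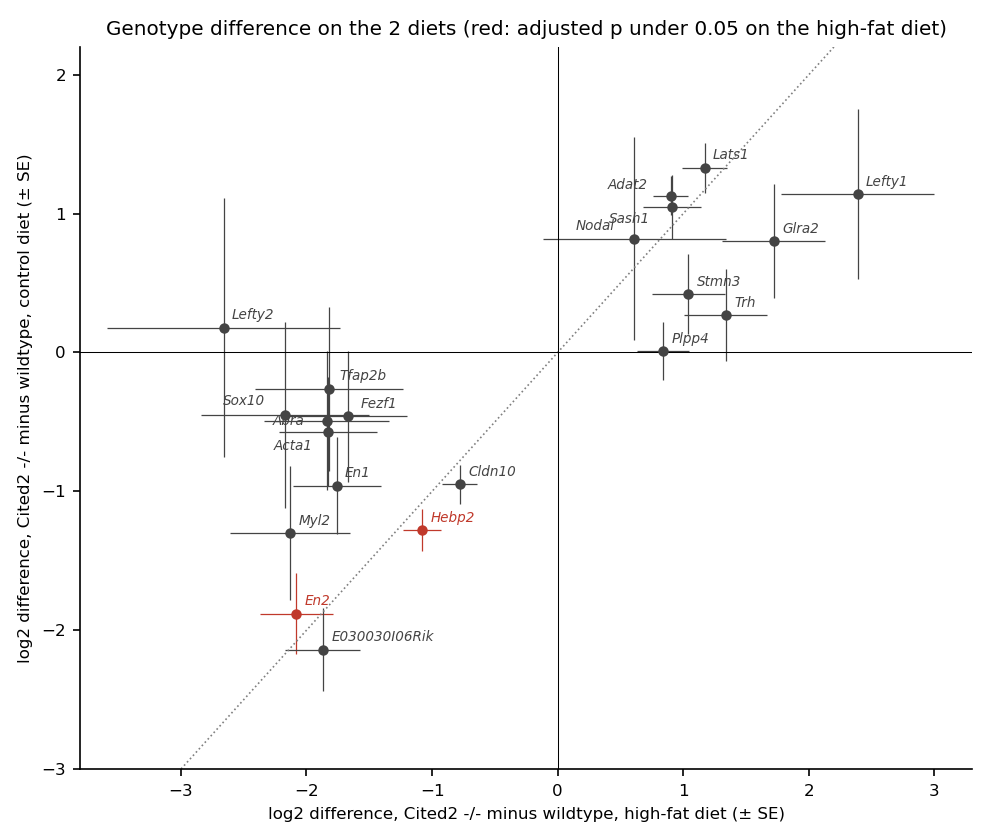
Log2 difference, Cited2 -/- minus wildtype, on the high-fat diet (x axis) and on the control diet (y axis), each with its SE, for the named genes other than Cited2 that passed or lay apart and for Nodal and Lefty2. Red marks En2 and Hebp2, and the dotted line is where both diets give the same difference. The genes near Cited2 and En2 lie close to the line, and Lefty2, Sox10, Tfap2b and Acta1 lie to the left of it.

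Among probes without a gene name 0 passed. One is given although it was picked after its values were seen. ILMN_1239542 had bead signals of 146.2, 228.7 and 147.2 in Cited2 -/- embryos, against −7.2, −8.8 and 111.0 in wildtype embryos (2.53 ± 0.50, limma, adjusted p = 0.324). On the control diet it read 156.3, 159.1 and 237.1 in Cited2 -/- embryos, against −5.4, −9.6 and −15.5 in wildtype embryos, so that wildtype embryo 3 of the high-fat diet was the 1 wildtype embryo with a signal.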

How the data were processed

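The authors deposited, per array and probe, an average bead intensity, a detection p-value, the spread over beads and, per the file headers, a detection score (a fraction, 1 minus the p-value) and a bead number. Per the submitters' processing notes the software was BeadStudio 3.2.6. The authors' deposited table of log2 values, of unstated normalization, served as an alternative. The files name no genome build, and RefSeq (GRCm38.p6) gave gene order and promoter windows.

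Intensities were normalized with neqc of limma 3.58.1 (R 4.3.3, offset 16). All 12 arrays entered 1 limma model with a mean per group (lmFit, eBayes). It was tested on simulated data with independent noise per probe. These had no array sets and no outlying embryos, so that test cannot speak to either. A gene with several probes was taken at the brightest. Of 45281 probes, 34885 had 1 symbol, 18 several and 10378 none. The number of arrays limits the precision, and p-values measure the spread between these embryos. For a probe undetected in a group, the fold is a bound against, per array, the higher of the lowest detected signal and the probe's own.

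Named genes were Cited2, Nodal, Lefty1 and Lefty2, the genes that passed with or without the array set as a block, the 8 highest and 8 lowest differences among the others with an unadjusted p under 0.01 and no overlap, these and the 3 smallest p of each list, and the 5 smallest interaction p. Further list members are named for their role or because their groups did not overlap. The comparison, the members of the 28 lists, the naming rule and the tests were chosen with earlier results of these data known. The Xist covariate was added after the data had been seen. Each title number is shared by a Cited2 -/- and a wildtype embryo of the same diet. Embryos that share a number were not treated as pairs in the main fit, since the labels do not say what the numbers mark. The correlations of such embryos, given below, cannot settle this, since their sign went with the array sets.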

Additional observations from a re-analysis of the deposited data

How the results depend on the processing

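The count of 5 passing probes on the high-fat diet was 6 with the array set as a block, 4 within set A and 1 within set B. It was 2 with the 6 high-fat arrays normalized and fitted alone. It was 3 without background correction, with median scaling, without the filter on dim probes, with probes detected on at least 3 of 12 arrays, and with the Y-linked or the Xist level as a covariate. It was 0 among the 14814 probes detected on all 6 arrays (limma, 372 at an unadjusted p under 0.05), a filter that leaves out Cited2 and En2, and 1841 with array weights (971 higher, 870 lower), which gave wildtype embryo 2 a weight of 8.41 and most embryos one under 1. The cause of these shifts was not tested. Leaving out 1 embryo gave 3 to 11. It was 3, the Cited2 probes, without Cited2 -/- embryo 3, wildtype embryo 2, control-diet Cited2 -/- embryo 2 or control-diet wildtype embryo 1 or 3, and 11 without control-diet Cited2 -/- embryo 3. On the control diet the count of 7 was 16 with the array set as a block, 4 within set A, 4 with a block by title number, 2 with probes detected on all 6 arrays and 15 with array weights, and 3 to 10 leaving out 1 embryo, at 3 or 4 when any 1 of the 6 control-diet embryos was left out. The interaction count stayed at 0 under all 28 alternatives. Cited2 lost its call with the 6 arrays alone (−5.97, adjusted p = 0.0677) at its brightest probe and ran from −6.78 to −5.55 leaving out 1 embryo. Deviations of embryos sharing a description number correlated at 0.269, 0.079 and 0.411 on the high-fat and 0.677, 0.206 and 0.259 on the control diet. For title numbers the values were 0.371, −0.094 and −0.244 on the high-fat and −0.512, 0.206 and −0.351 on the control diet. Every pair within the same array set was positive, and every pair split between the sets was negative. These correlations thus cannot show whether a number marks a pair. What the numbers mark is not stated, and a shared litter was not tested. The replicate block gave 3 probes, the title number as a block 4 and as a random block 3, in each case without En2 and Hebp2.

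Of 2825 values of named genes under alternatives, 14 turned direction. These were, with array weights, Snai1 (0.00), Srebf2 (−0.06) and Notch3 (0.03). With the Y-linked covariate it was Srebf2 (−0.01). Within set B they were Klf1 (0.65), Acadvl (0.21), Tnfrsf10b (0.26) and Steap4 (−0.06), and within set A Dab2 (−0.18). Leaving out 1 embryo, Hba-a1 ran from −0.08 (without wildtype embryo 2) to 1.52, Klf1 from −0.48 to 0.08 (without Cited2 -/- embryo 1) and Lyz1 from −0.46 (without Cited2 -/- embryo 2) to 1.31, at −0.08 and −0.11 without wildtype embryos 2 and 3. None of these genes had passed.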
